A study of Rattus norvegicus with 6 samples.

Results

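Of 45 genes chosen by symbol for the proteasome, muscle ubiquitin ligases and autophagy, none passed the test between normal rat hearts, hearts under TAC and hearts released from it, and the one that came nearest was Sqstm1, which encodes the autophagy receptor p62. The 45 genes comprise every named row whose symbol begins with Psma, Psmb, Psmc or Psmd followed by a number, without the immunoproteasome subunits Psmb8, Psmb9 and Psmb10 (35 genes), and 10 further genes: the muscle ubiquitin ligases Fbxo32 and Trim63, the transcription factors Foxo1 and Foxo3, and the autophagy genes Map1lc3a, Map1lc3b, Gabarapl1, Sqstm1, Becn1 and Bnip3. Each gene had 1 row of the 23188 tested, so no choice between rows was needed. One of them, Psmc3ip, matches the symbol pattern but encodes a recombination factor and no proteasome subunit, which leaves 34 Psm genes. The subunit gene Psmd11 has no row with its symbol here and was not analysed.

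RNA from whole hearts of male Sprague-Dawley rats was measured on 6 Clariom S Rat arrays, 2 from normal hearts, 2 from hearts subjected to TAC and 2 from hearts released from TAC, called TAC-R. In TAC a thread was tied around the transverse aorta against a needle that was then withdrawn, so that the left ventricle pumped against a narrowing, and the rats were 10 weeks old. The sources used here do not give the time under TAC or after release, nor whether the normal hearts came from operated controls. Separate animals are not stated for the replicates of a group. The p-values therefore measure only how far these arrays spread, which may be technical. In whole heart, fewer cells of a type and less RNA per cell cannot be told apart.

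The proteasome is a barrel-shaped protease. Its core particle stacks rings of alpha subunits, which form the gate, around rings of beta subunits, some of which carry the cutting sites, and a regulatory particle of ATPases and non-ATPase subunits at each end binds, unfolds and feeds in proteins tagged with ubiquitin. In muscle the ligases atrogin-1 (Fbxo32) and MuRF1 (Trim63) tag proteins for this route, and FoxO transcription factors are known to raise both genes when muscle wastes. Autophagy is the other route: a membrane coated with lipid-linked LC3 and GABARAP proteins encloses cargo, which receptors such as p62 hold, and delivers it to lysosomes. Both routes are known to take part when a loaded heart grows and when it shrinks back after unloading.

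Values are the log2 signals deposited for the arrays, on which 1 unit is a 2-fold step. Probes differ in how strongly they bind, so signals are compared between arrays for 1 gene and not between genes. The 95th percentile of the 1153 negative control rows lay between 8.09 and 8.55 on the 6 arrays. Of the 45 genes, 41 exceeded it on all 6 arrays and 42 had a mean above the same percentile of the control row means, 8.18, as did 6207 of all tested rows. Array medians ran from 5.31 to 5.39. All 10 measured cardiomyocyte markers were above the percentile on every array. Of these, Actc1, Myl3, Mb and Pln lay at the ceiling of the values, 19.93, on all 6 arrays, and Tnni3 was constant at 19.88. These genes cannot show a change. The labels call the samples whole heart, although their extraction field speaks of cultured fibroblasts.

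Differences were tested with limma's moderated linear model over all tested rows with Benjamini-Hochberg adjustment, and a gene was called at an adjusted p under 0.05. Between TAC and normal 0 of 45 members were called, where 0.254% of all rows were, and 1 member, Sqstm1, had an unadjusted p under 0.05, with the lower signal under TAC. Rows with an unadjusted p under 0.05 made up 5.43% (higher under TAC) and 4.89% (lower) of all rows. Between TAC-R and TAC 0 of 45 were called against 0.431% of rows, and 6 members had an unadjusted p under 0.05, all higher in TAC-R: Sqstm1, Bnip3, Gabarapl1, Becn1, Psma2 and Psmd10. The shares over all rows were 4.79% higher and 6.2% lower. Between TAC-R and normal 0 of 45 were called against 0.0906% of rows, and 4 had an unadjusted p under 0.05, all higher in TAC-R: Gabarapl1, Psmc5, Psmd4 and Sqstm1, beside 5.36% higher and 5.32% lower over all rows.

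A looser description counts genes for which both arrays of one group lay on one side of both arrays of the other. Among the 42 members above the negative controls, 12 (28.6%) were higher and 6 (14.3%) lower under TAC than in normal hearts, close to the 32.2% and 17.6% of all 6207 rows above the controls. TAC-R lay wholly above TAC for 12 members (28.6%) and wholly below for 2 (4.76%), where all rows gave 24.3% and 24%. TAC-R lay wholly above normal for 17 members (40.5%) and wholly below for 0, against 29.8% and 16.3%. The comparisons share groups of arrays, so these counts are not independent of each other. The model's precision was limited: the 95% interval of a member's difference, not adjusted for the number of genes, reached a median of 0.51 log2 units to either side.

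**Figure D1:**
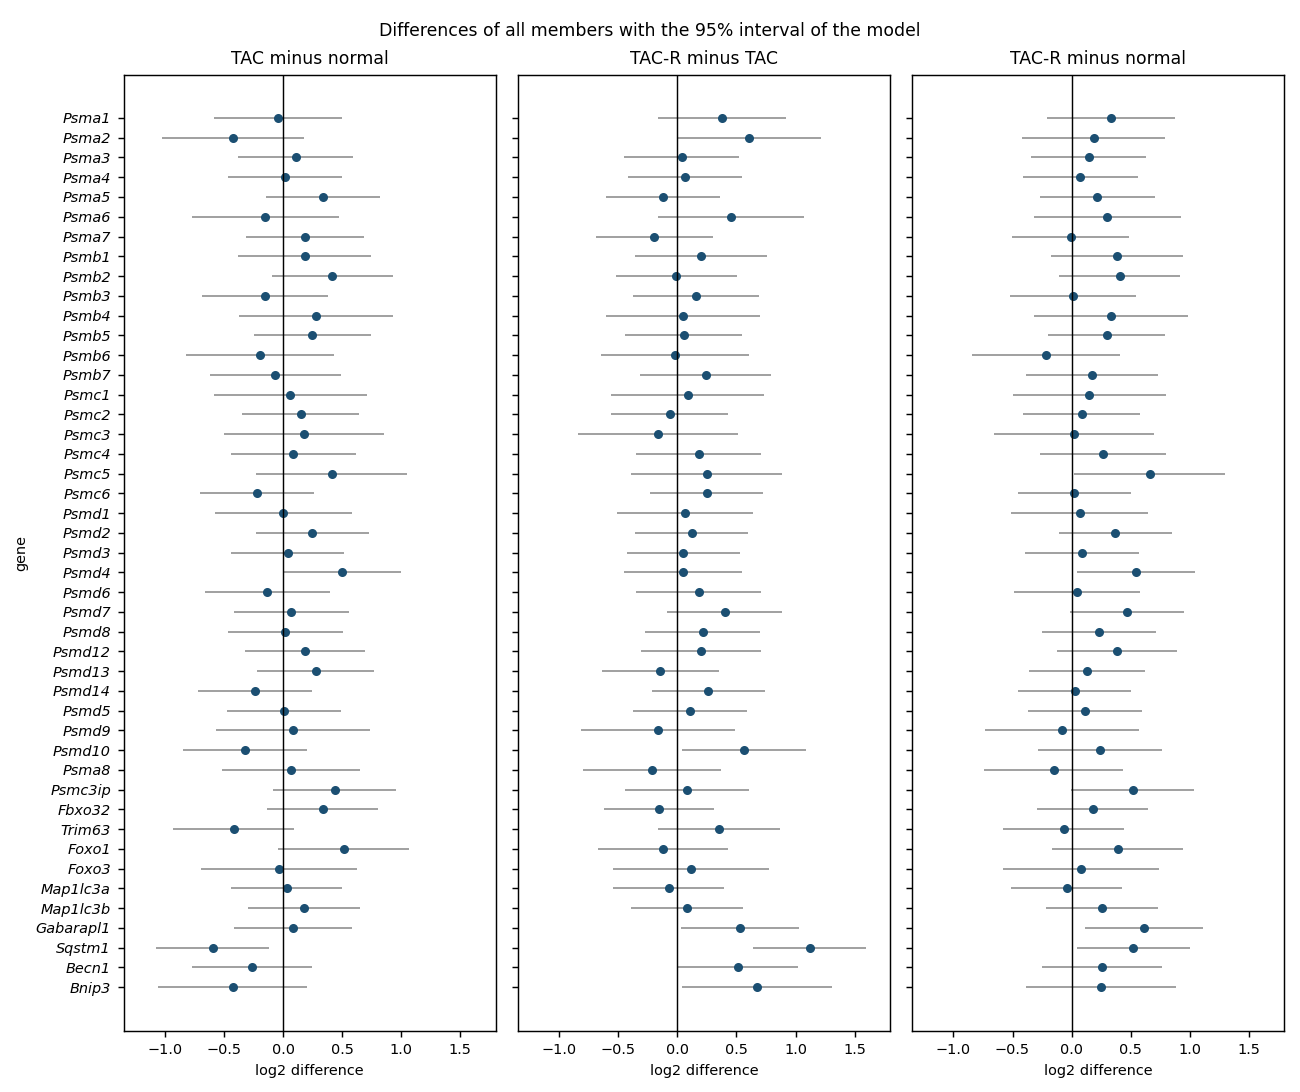
Log2 difference of each of the 45 genes (points) with the unadjusted 95% interval of the model (lines) in the 3 comparisons, 2 arrays a group. Most intervals span 0, and Sqstm1 stands apart in the comparison of TAC-R with TAC at 1.12.

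Among the autophagy genes, Sqstm1 had the widest separation of the groups. Its signal was 14.37 and 14.17 on the normal arrays, 13.61 and 13.73 under TAC, and 14.77 and 14.81 in TAC-R. The 3 groups did not overlap: TAC was lowest, normal lay between and TAC-R was highest. The difference of TAC-R from TAC was 1.12 ± 0.21 log2 units (standard error of the model, 95% interval 0.64 to 1.60), a 2.17-fold higher signal, with an adjusted p = 0.0789, and 0.668% of all rows had a smaller p. With an intensity trend in the moderation the same difference had an adjusted p = 0.000754, and with rows below the median of row means left out it had 0.028, so its call depends on that choice. Over all alternatives the adjusted p ran from 0.000754 to 0.364. TAC differed from normal by -0.60 ± 0.21 (interval -1.07 to -0.12, adjusted p = 0.4), and TAC-R from normal by 0.52 ± 0.21 (0.04 to 1.00, adjusted p = 0.431). All 3 groups were separate for 4 of the 42 members above the negative controls (9.52%), Sqstm1, Becn1, Fbxo32 and Foxo1, and for 16.2% of all rows above them. They were also separate for Psmd10, which lay below the controls.

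The stretch of the rat Sqstm1 promoter just before the transcription start is shown because this gene had the largest difference among the members. It comes from RefSeq (build GRCr8, minus strand, chr10:35037751-35037810) and is printed 5′ to 3′ along the gene, up to the last base before the start, with a TATA box (TATAAA) in capitals at -30.
Sqstm1: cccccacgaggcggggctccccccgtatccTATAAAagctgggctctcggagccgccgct
That motif was looked for after the sequence had been read. On either strand of the window from 250 bases before to 50 bases after the start, 14.2% of all 33469 promoters in the table hold it, and so do 6 of the 37 members found there.

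Gabarapl1, an autophagosome coat protein of the GABARAP branch, had signals of 12.41 and 12.12 in normal hearts, 12.28 and 12.42 under TAC, and 12.94 and 12.81 in TAC-R. Both TAC-R arrays were above all 4 others, whereas TAC and normal overlapped. TAC-R differed from TAC by 0.53 ± 0.22 (interval 0.03 to 1.03, adjusted p = 0.425) and from normal by 0.61 ± 0.22 (0.12 to 1.11, adjusted p = 0.385), the smallest adjusted p of any member in that comparison. The LC3 genes Map1lc3a and Map1lc3b encode the other coat proteins. Map1lc3a stayed between 11.71 and 11.87 on all arrays, and its 3 differences were 0.03, -0.07 and -0.04, each with a standard error of 0.21, so that differences beyond 0.54 in size lay outside the intervals. For Map1lc3b, both normal arrays (14.92 and 14.86) were below TAC (15.08 and 15.05) and TAC-R (15.25 and 15.05), and TAC-R differed from normal by 0.26 ± 0.21 (adjusted p = 0.698).

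Becn1, a subunit of the lipid kinase complex that starts the autophagosome, followed the order of Sqstm1. It measured 10.20 and 9.96 in normal hearts, 9.68 and 9.96 under TAC, and 10.26 and 10.40 in TAC-R. The higher TAC array nearly met the lower normal one, and TAC-R differed from TAC by 0.52 ± 0.22 (adjusted p = 0.447). Bnip3, a receptor for the removal of mitochondria that low oxygen is known to induce, measured 12.68 and 12.79, then 12.26 and 12.35, then 12.59 and 13.38. Its TAC arrays were below all others, but the TAC-R arrays were 0.79 apart, so the difference of 0.68 ± 0.28 from TAC (adjusted p = 0.424) leaned on TAC-R replicate 2. Over these 6 autophagy genes the median difference was -0.12 for TAC against normal, 0.52 for TAC-R against TAC and 0.26 for TAC-R against normal, where all rows above the negative controls had 0.08, 0.01 and 0.09.

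Sets of markers of other cells differed between the same arrays. The 8 measured of 9 fibroblast markers had a summed linear signal of 132000 to 167000 in normal hearts, 179000 to 191000 under TAC and 90900 to 118000 in TAC-R, the reverse of the order of Sqstm1. Dcn had the highest signal and weighs most in this sum, and its difference of TAC from normal was the smallest of the 8, 0.19. The median differences of the 8 in the 3 comparisons were 0.82, -1.42 and -0.56. The 5 atrial markers summed to 1380 to 1680, 605 to 700 and 8480 to 33900, in the same order as Sqstm1. Of these, Sln and Bmp10 stayed below the negative control percentile on all arrays, Myl4 exceeded it on 1 and Myl7 on 2. Nppa exceeded it on all 6. It differed by -1.38 ± 0.62 between TAC and normal and by 3.71 ± 0.62 between TAC-R and TAC (adjusted p = 0.492 and 0.0527). For TAC against normal, 2 of the 5 atrial differences were above 0 and 3 below. Of the 10 skeletal muscle markers, 2 exceeded the percentile on both arrays of each group, Acta1 and Ckm, which the heart also expresses. Acta1 had group means of 19.13, 18.13 and 19.89, and Ckm of 18.04, 18.16 and 18.02. Over the 10 the median difference of TAC-R from normal was -0.04. The 8 measured of 9 red cell markers summed to 782000 to 829000, 1800000 to 1870000 and 1320000 to 1420000. Hba-a1 lay at the ceiling on both TAC arrays, so the sum under TAC may be understated. The median differences of the 8 in the 3 comparisons were 2.17, -0.95 and 0.74. The 6 measured of 7 endothelial markers, 4 with a mean above the negative controls, summed to 60900 to 61200, 52700 to 56300 and 24200 to 42100. Cdh5 had the highest signal and weighs most in this sum. For TAC against normal, 3 of the 6 differences were above 0 and 3 below, with a median of 0.03. The medians were -0.61 for TAC-R against TAC and -0.50 for TAC-R against normal. In the 3 comparisons 5, 3 and 1 red cell markers were called, 0, 2 and 0 fibroblast markers, and 0, 1 and 1 atrial markers. The counts were 0, 1 and 0 for skeletal muscle and 0 in each for endothelial markers. Lymphatic markers had 1, 2 and 0, and smooth muscle and pericyte markers 1, 0 and 0. Over all rows 0.254%, 0.431% and 0.0906% were called. Of the 10 cardiomyocyte markers, 1 was called between TAC and normal and between TAC-R and TAC, Myh7. Its group means were 19.92, 17.82 and 19.92, with differences of -2.10 ± 0.20 and 2.10 ± 0.20 (adjusted p = 0.00627 and 0.00663). Myh7 touched the ceiling in normal hearts and in TAC-R, so these sizes may be understated. Ryr2 had means of 16.36, 15.66 and 16.15 and was not called. The part of cell make-up in the differences of Sqstm1 and the other autophagy genes was not tested.

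**Figure D2:**
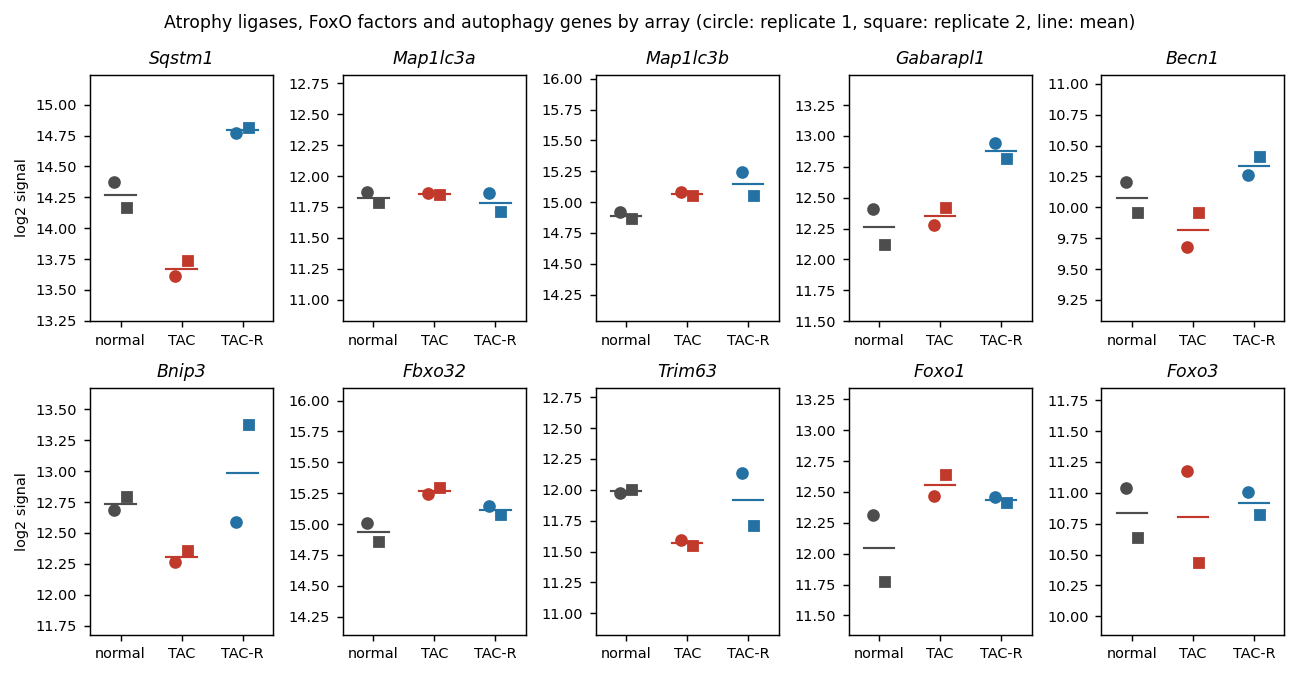
Log2 signal on each array of the 6 autophagy genes, the 2 ligases and the 2 FoxO factors (circles replicate 1, squares replicate 2, lines group means of 2 arrays), each panel spanning 2 log2 units around the gene's mean. Sqstm1 shows 3 separate groups, while Foxo3 overlaps in all 3.

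The atrophy ligases differed in opposite directions under TAC. Fbxo32 measured 15.01 and 14.86 in normal hearts, 15.24 and 15.29 under TAC, and 15.15 and 15.08 in TAC-R, with all 3 groups separate and TAC highest. Trim63 measured 11.98 and 12.00, then 11.60 and 11.54, then 12.13 and 11.71, and here TAC was lowest. TAC differed from normal by 0.33 ± 0.21 for Fbxo32 and by -0.42 ± 0.23 for Trim63 (adjusted p = 0.604 and 0.555), so neither passed the test, and the difference between the 2 genes was not tested. Against TAC, TAC-R differed by -0.16 ± 0.21 for Fbxo32 and by 0.35 ± 0.23 for Trim63 (adjusted p = 0.835 and 0.643). Neither gene differed from normal after release by more than its error, at 0.18 ± 0.21 and -0.07 ± 0.23.

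Foxo1, one of the FoxO factors, measured 12.31 and 11.77 in normal hearts, 12.47 and 12.64 under TAC, and 12.46 and 12.41 in TAC-R. The normal arrays lay below all others but were 0.54 apart, and the difference of TAC from normal was 0.51 ± 0.24 (interval -0.04 to 1.07, adjusted p = 0.508). Foxo3 ranged from 10.43 to 11.17 under TAC alone, as wide as over all 6 arrays, and its differences of -0.03, 0.11 and 0.08 (standard error 0.29) carried no direction. Because FoxO factors are known to act on the ligase genes, promoters were searched for the FoxO site GTAAACA on both strands. Among the 37 members with a RefSeq promoter it was found in 1, that of Trim63, and in 3.78% of all promoters. The promoters of Fbxo32 and Foxo3 were not among the 37. The site lies on the strand opposite to the gene with its first base along the gene at -205, and it is shown in capitals as it reads along the gene (GRCr8, plus strand, chr5:151817001-151817067).
Trim63: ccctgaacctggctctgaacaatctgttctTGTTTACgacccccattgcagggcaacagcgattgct

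The 34 Psm genes showed small differences. Their median difference was 0.07 log2 units for TAC against normal, 0.10 for TAC-R against TAC and 0.16 for TAC-R against normal, beside 0.08, 0.01 and 0.09 over all rows above the negative controls. After quantile normalization the medians were -0.01, 0.08 and 0.05, so that the first turned its sign. The most extreme single differences in the 3 comparisons were -0.42 and 0.50, -0.22 and 0.61, and -0.21 and 0.66. In the order of the group means, 16 of 34 had normal lowest and TAC-R highest, 9 had TAC lowest and TAC-R highest, and 9 had another order. The share of all rows with each order was not counted. Differences above 0 were found in 24, 25 and 30 of the 34 in the 3 comparisons. Among the 6207 rows above the negative controls, 3775, 3170 and 3811 had differences above 0.

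In the alpha rings, the 7 measured subunits had median differences of 0.01, 0.06 and 0.19 in the 3 comparisons. Psma2 had the largest difference in any of the comparisons, with 10.53 and 9.99 in normal hearts, 9.60 and 10.08 under TAC, and 10.47 and 10.42 in TAC-R. TAC-R lay above both TAC arrays by 0.61 ± 0.27 (interval 0.00 to 1.21, adjusted p = 0.45), whereas the normal arrays spanned both. Psma6 and Psma1 had differences of 0.45 ± 0.27 and 0.38 ± 0.24 between TAC-R and TAC (adjusted p = 0.614 and 0.632), and the arrays of Psma6 overlapped, since 1 TAC array had 11.62 and the other 12.28. Psma5 had 8.84 and 9.03 in normal hearts and 9.37 and 9.18 under TAC, a difference of 0.34 ± 0.21 (adjusted p = 0.61). Psma7 was the alpha subunit with the lowest value of TAC-R against TAC (-0.19 ± 0.22, adjusted p = 0.803). Psma3 stayed between 12.75 and 13.06 and Psma4 between 13.35 and 13.59 over all 6 arrays.

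The 7 beta subunits had median differences of 0.18, 0.05 and 0.30. The cutting sites lie on 3 of them: Psmb5 cuts after hydrophobic residues, Psmb7 after basic and Psmb6 after acidic ones. Psmb5 measured 11.05 and 10.75 in normal hearts, 11.13 and 11.16 under TAC, and 11.27 and 11.12 in TAC-R, with normal below all others and a difference of 0.30 ± 0.22 between TAC-R and normal (adjusted p = 0.659). Psmb6 measured 13.10 and 12.40, then 12.38 and 12.73, then 12.51 and 12.56. One normal array was high and the groups overlapped, so its -0.21 ± 0.28 for TAC-R against normal, the lowest of the Psm genes, is within its error. Psmb7 overlapped in every comparison, with differences of -0.07, 0.24 and 0.17 (standard error 0.24).

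Psmb2, a structural beta subunit, was the member of the core particle with the largest difference of TAC-R from normal. It measured 12.31 and 11.93 in normal hearts, 12.49 and 12.59 under TAC, and 12.58 and 12.48 in TAC-R. Both later groups lay above normal, by 0.42 ± 0.22 and 0.41 ± 0.22 (adjusted p = 0.555 and 0.558), and TAC-R differed from TAC by -0.01 ± 0.22. Psmb4 differed by 0.28 ± 0.29 between TAC and normal and Psmb1 by 0.38 ± 0.25 between TAC-R and normal (adjusted p = 0.772 and 0.611), both with a high TAC-R replicate 2, at 12.34 and 12.36. Psmb3 had differences of -0.15, 0.16 and 0.01 (standard error 0.23).

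Proteasome genes are known targets of Nrf1, a factor that binds antioxidant response elements, so the core of that element, TGACNNNGC, was searched on both strands of the promoter windows. Of the 30 Psm genes with a promoter, 7 (23.3%) held it: Psma3, Psmb2, Psmb5, Psmb6, Psmd1, Psmd3 and Psmd9, where 12.1% of all promoters did. The TFEB-type site TCACGTGA was found in 0 of the 37 members' windows and in 0.777% of all. The matches in the beta subunit genes are shown as examples, in capitals, 5′ to 3′ along the gene, with first bases at -68, -60 and -24 (GRCr8). Those of the other genes, such as Psma3 with its first base at -12, are not shown. The stretches are chr5:144254960-144255028 on the plus strand, chr15:32047401-32047469 on the minus strand and chr10:55737834-55737887 on the plus strand.
Psmb2: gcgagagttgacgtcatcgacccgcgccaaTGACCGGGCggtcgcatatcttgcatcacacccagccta
Psmb5: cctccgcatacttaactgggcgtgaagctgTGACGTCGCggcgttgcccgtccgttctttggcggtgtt
Psmb6: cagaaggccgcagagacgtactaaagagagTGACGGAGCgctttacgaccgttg
These matches describe letters and not binding. Psmb2 and Psmb5 were lowest in normal hearts, whereas Psmb6 had its highest array there.

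In the base of the regulatory particle, the 6 ATPases that unfold substrates had median differences of 0.12, 0.13 and 0.12. Psmc5 had the largest difference of TAC-R from normal among the Psm genes, 0.66 ± 0.28 (interval 0.02 to 1.30, adjusted p = 0.452). Its arrays gave 11.39 and 11.00 in normal hearts, 11.46 and 11.76 under TAC, and 11.53 and 12.19 in TAC-R, so normal lay below all others and TAC-R replicate 2 stood highest. Psmc6 had 10.66 and 10.64, then 10.48 and 10.38, then 10.56 and 10.79, with TAC below both other groups and a difference of -0.22 ± 0.21 from normal (adjusted p = 0.75). Psmc3 differed by -0.16 ± 0.30 between TAC-R and TAC, its TAC arrays being 9.88 and 10.60. The differences of Psmc1, Psmc2 and Psmc4 lay between -0.06 and 0.27, and their groups overlapped in every comparison.

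The 10 measured non-ATPase subunits had median differences of 0.05, 0.15 and 0.18, and 5 of them had TAC-R wholly above normal, as had 29.8% of all rows above the negative controls. Psmd4, a receptor for ubiquitin chains, measured 10.52 and 10.76 in normal hearts, 11.13 and 11.15 under TAC, and 11.05 and 11.32 in TAC-R. Normal lay below both other groups, by 0.50 ± 0.22 for TAC (adjusted p = 0.486) and by 0.54 ± 0.22 for TAC-R (0.04 to 1.04, adjusted p = 0.436). Psmd7, a lid subunit paired with the deubiquitinase Psmd14, measured 12.20 and 11.96, then 12.14 and 12.16, then 12.62 and 12.48. TAC-R alone stood apart, by 0.40 ± 0.21 from TAC and 0.47 ± 0.21 from normal (adjusted p = 0.552 and 0.481). Psmd14 itself measured 10.18 and 10.24, then 9.86 and 10.09, then 10.19 and 10.29, with TAC lowest by -0.24 ± 0.21 against normal (adjusted p = 0.733). The lid subunit Psmd13 was higher under TAC on both arrays (11.19 and 11.24 against 10.93 and 10.95) and had the lowest difference of TAC-R from TAC in this class, -0.14 ± 0.22. Psmd1, Psmd2, Psmd3, Psmd6, Psmd8 and Psmd12 had differences between -0.13 and 0.38, none with an unadjusted p under 0.05.

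Of the chaperones that assemble the base and leave before the particle is complete, Psmd5 and Psmd9 differed by -0.17 to 0.11 in the 3 comparisons. Psmd10, which encodes gankyrin, measured 6.74 and 6.61 in normal hearts, 6.22 and 6.50 under TAC, and 7.10 and 6.74 in TAC-R. TAC was lowest and TAC-R highest, with a difference of 0.56 ± 0.23 (adjusted p = 0.423), but all of these signals were below the negative control percentile, so the size is not measured. Psma8, the alpha subunit of testis proteasomes, stayed between 2.59 and 3.20, below the median of the negative control row means, 4.47. Psmc3ip, the recombination factor, lay between 5.87 and 6.57, also below the percentile.

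**Figure D3:**
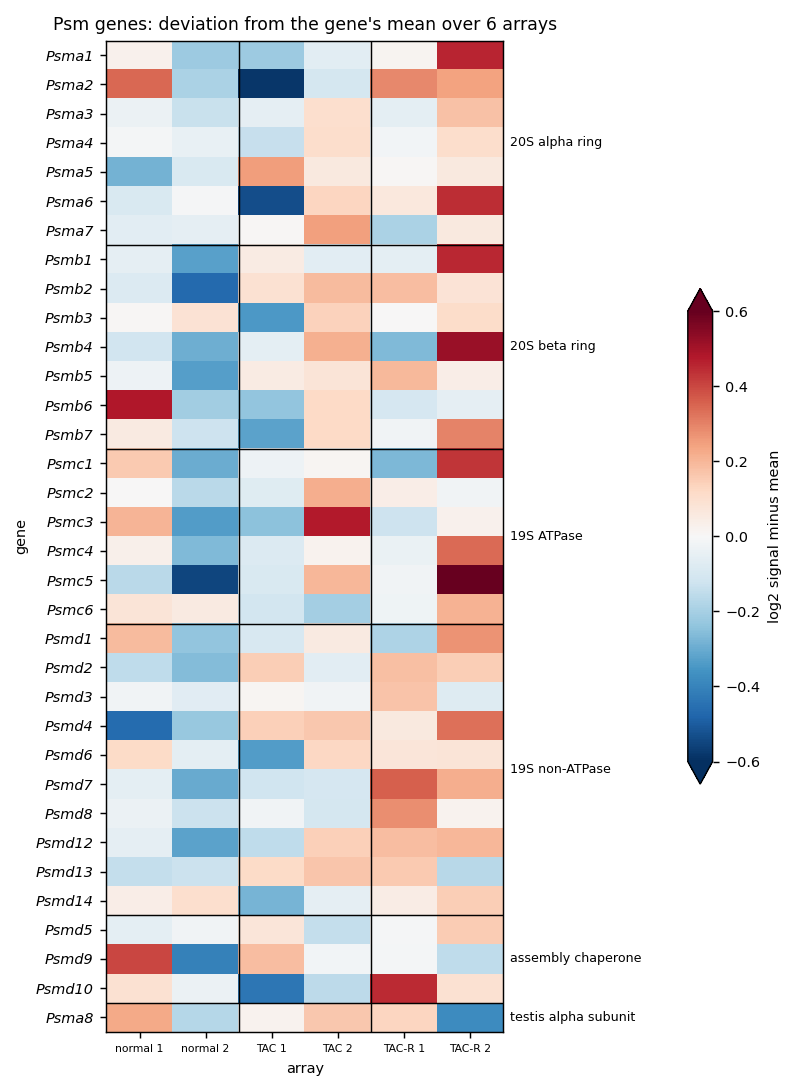
Deviation of each of the 34 Psm genes (rows, by place in the particle) on each array (columns) from its own mean over the 6 arrays, in log2 units. Normal replicate 2 is mostly blue (lower) and TAC-R replicate 2 mostly red (higher), while the arrays of a group often differ in sign.

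Psm genes shared differences between the 2 arrays of a group. In normal hearts 26 of 34 were higher on replicate 1, with a median of -0.17 for replicate 2 minus replicate 1. Under TAC 26 of 34 were higher on replicate 2 (median 0.15), and in TAC-R 22 of 34 were (median 0.10). Over all 6207 rows above the negative controls the medians were -0.07, -0.02 and 0.03. Of these rows, 3799 were higher on normal replicate 1, 2884 on TAC replicate 2 and 3302 on TAC-R replicate 2. The shared shift within a group was thus about as large as the median differences between groups, 0.07, 0.10 and 0.16. The 6 ATPases showed it most clearly: all 6 were higher on normal replicate 1 (median -0.34), and 5 of 6 were higher on replicate 2 under TAC and in TAC-R (0.20 and 0.31). Without normal replicate 1 the median difference of the Psm genes was 0.20 for TAC against normal and 0.28 for TAC-R against normal, and without normal replicate 2 it was -0.04 and 0.11. For TAC-R against TAC it was 0.04 and 0.17 without TAC replicate 1 and 2, and 0.19 and 0.03 without TAC-R replicate 1 and 2.

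**Figure D4:**
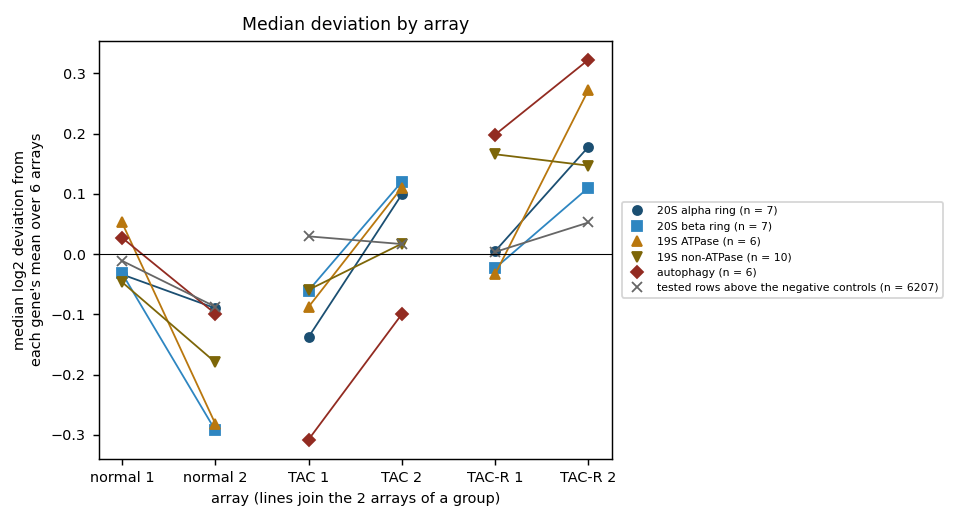
Median deviation of the classes of proteasome subunits, of the autophagy genes and of all rows above the negative controls on each array, in log2 units, with lines joining the 2 arrays of a group. The steps within a group for the ATPases (median -0.34 in normal hearts and 0.31 in TAC-R) are larger than their median differences between groups, 0.12, 0.13 and 0.12.

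Other genes of the same pathways were described from 10 lists. In the comparisons of TAC with normal and of TAC-R with normal, 0 of the 132 genes measured were called, and in that of TAC-R with TAC 1 was, beside 0.431% of all rows. The gene called was Gadd45a, a stress gene that FoxO factors and atrophying muscle are known to raise. It measured 10.79 and 10.45 in normal hearts, 10.02 and 10.04 under TAC, and 11.31 and 11.49 in TAC-R. The groups were separate in the same order as for Sqstm1, and TAC-R rose above TAC by 1.37 ± 0.22 log2 units (adjusted p = 0.0464). This call was lost when any 1 of the 6 arrays was left out (adjusted p from 0.0941 to 0.279), when only the 2 groups were compared (0.0941) and when control rows were kept in (0.0851), while the difference stayed between 1.28 and 1.46.

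The list of the FoxO axis and atrophy regulators, to which Gadd45a belongs, had 22 measured genes, of which 1 was called higher and 0 lower in TAC-R than TAC, with a median difference of 0.20. Txnip, an inhibitor of thioredoxin and glucose uptake, measured 16.61 and 16.64 in normal hearts, 15.68 and 15.50 under TAC, and 16.27 and 16.57 in TAC-R. TAC lay below all others, by -1.04 ± 0.22 against normal (adjusted p = 0.158), and TAC-R differed from TAC by 0.83 ± 0.22 (adjusted p = 0.2). With an intensity trend both differences passed (adjusted p = 0.000921 and 0.0034). Klf15, a glucocorticoid-induced factor of muscle metabolism, differed by 0.79 ± 0.29 between TAC-R and normal (adjusted p = 0.396).

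Among 20 measured muscle ligases and deubiquitinases beyond Fbxo32 and Trim63, 0 were called in any comparison, and the median differences were -0.12, 0.18 and 0.13. Trim54, a relative of Trim63 also known as MuRF3, measured 14.21 and 13.90 in normal hearts, 13.51 and 13.91 under TAC, and 14.75 and 14.46 in TAC-R, a difference of 0.90 ± 0.24 between TAC-R and TAC (adjusted p = 0.218, and 0.0185 with an intensity trend). Asb2, a muscle substrate receptor of cullin ligases, measured 15.29 and 15.03, then 14.77 and 14.84, then 15.77 and 15.54, a difference of 0.85 ± 0.22 (adjusted p = 0.189). In both, TAC-R lay above all other arrays. Fbxo21 and Wwp1 had the largest differences between TAC and normal, 0.53 ± 0.24 and 0.45 ± 0.22 (adjusted p = 0.498 and 0.516).

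The remaining lists of the proteasome route had 0 calls in each comparison. Of 7 genes of the immunoproteasome and the proteasome activators, Psmb9 and Psmb8 had the largest differences of TAC from normal, 0.75 and 0.40, at signals below the percentile, so their sizes are not measured, nor is the 0.32 of Psmb10 between TAC-R and TAC. Psme3 and Psme4, activators of the core particle, differed by 0.35 ± 0.23 between TAC-R and TAC and by 0.41 ± 0.27 between TAC-R and normal (adjusted p = 0.649 and 0.62). Of 8 assembly factors, inhibitors and associated proteins, Psmf1, an inhibitor, differed by 0.60 ± 0.22 between TAC and normal and the small subunit gene Sem1 by 0.60 ± 0.26 between TAC-R and TAC (adjusted p = 0.406 and 0.443). Psmg4, an assembly chaperone, differed by -0.58 between TAC and normal, below the percentile. The assembly factor Pomp differed by 0.35 ± 0.25 between TAC-R and TAC (adjusted p = 0.672). Ubiquitin genes, activating enzymes and shuttles (9 measured) had median differences of 0.19, 0.02 and 0.20, with Nploc4 at 0.45 ± 0.23 and Ubqln4 at 0.38 ± 0.23 between TAC-R and normal. Ubqln2 differed by 0.28 ± 0.25 between TAC and normal, and Rad23b and Ufd1 by 0.35 ± 0.22 and 0.35 ± 0.21 between TAC-R and TAC. Of 3 regulators measured, Nfe2l2 differed by 0.14, -0.12 and 0.03 (standard error 0.21) and Keap1, which restrains it, by 0.46, -0.15 and 0.31 (standard error 0.28). Ngly1, the third, stayed below the percentile. Nfe2l1, the gene of the Nrf1 named above, had no row with its symbol here and was not analysed.

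On the autophagy side, 0 genes of 4 further lists were called in any comparison. Of the 23 measured genes of lysosomes and autophagosome fusion, 16 were above the negative controls. In 11 of these 16 TAC lay wholly above normal and in 0 below, beside 32.2% and 17.6% of all rows, and in 7 of 16 TAC-R lay wholly below TAC, beside 24%. The median differences of the list were 0.34, -0.15 and 0.12. Ctsb, a cysteine protease of lysosomes, measured 15.45 and 15.21 in normal hearts, 16.01 and 16.01 under TAC, and 15.58 and 15.33 in TAC-R, with differences of 0.68 ± 0.22 and -0.55 ± 0.22 for the first 2 comparisons (adjusted p = 0.365 and 0.397). Gaa, the lysosomal glycogen enzyme, differed by 0.77 ± 0.21 between TAC and normal, and Ctsa by -0.62 ± 0.26 between TAC-R and TAC (adjusted p = 0.292 and 0.426). The fusion genes Plekhm1 and Stx17 had 0.91 and 0.94 as their largest differences, from normal under TAC and in TAC-R, at signals below the percentile. The macrophage markers, all 11 of them measured, had a summed signal of 4400 to 4950 in normal hearts, 6780 to 7560 under TAC and 3830 to 4900 in TAC-R. Only 4 of the 11 had a mean above the negative controls, and Lyz2 and Ccr2 were the brightest. In 9 of the 11 the mean was lower in TAC-R than under TAC, beside 11453 of all 23188 tested rows. The part of macrophages in the differences of the lysosomal genes was not tested.

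Mitophagy receptors and other receptors had median differences of 0.22, 0.10 and 0.32 over 12 genes. Bnip3l, the relative of Bnip3, had 13.24 and 13.06 in normal hearts, 13.78 and 13.81 under TAC, and 13.26 and 13.05 in TAC-R, with TAC above all others by 0.64 ± 0.21 against normal (adjusted p = 0.379), where Bnip3 had TAC lowest. The summed red cell markers were also highest under TAC, and the part of red cells in the difference of Bnip3l was not tested. Fkbp8 differed by 0.57 ± 0.23 between TAC and normal (adjusted p = 0.448). Calcoco1 and the kinase gene Pink1 differed by 0.55 ± 0.30 and 0.51 ± 0.22 between TAC-R and normal (adjusted p = 0.548 and 0.471). Of 16 initiation and nucleation genes, the kinase gene Ulk1 differed by 0.57 ± 0.23 and -0.45 ± 0.23 in the first 2 comparisons (adjusted p = 0.454 and 0.528), and Bcl2l1, which binds beclin, by 0.66 ± 0.23 between TAC-R and normal (adjusted p = 0.375). Atg2a and Atg9a differed by 0.69 ± 0.27 and 0.59 ± 0.31 between TAC and normal (adjusted p = 0.441 and 0.549). Of 12 conjugation genes, Gabarapl2 measured 10.08 and 10.19 in normal hearts, 10.37 and 10.32 under TAC, and 10.64 and 10.65 in TAC-R, with all 3 groups separate and a difference of 0.52 ± 0.20 between TAC-R and normal (adjusted p = 0.429). Gabarap and Atg12 differed by 0.39 ± 0.25 between TAC and normal and by 0.67 ± 0.22 between TAC-R and TAC (adjusted p = 0.613 and 0.309). Atg3 differed by -0.31 ± 0.22 between TAC and normal (adjusted p = 0.657), and Atg16l2 stayed below the percentile.

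**Figure D5:**
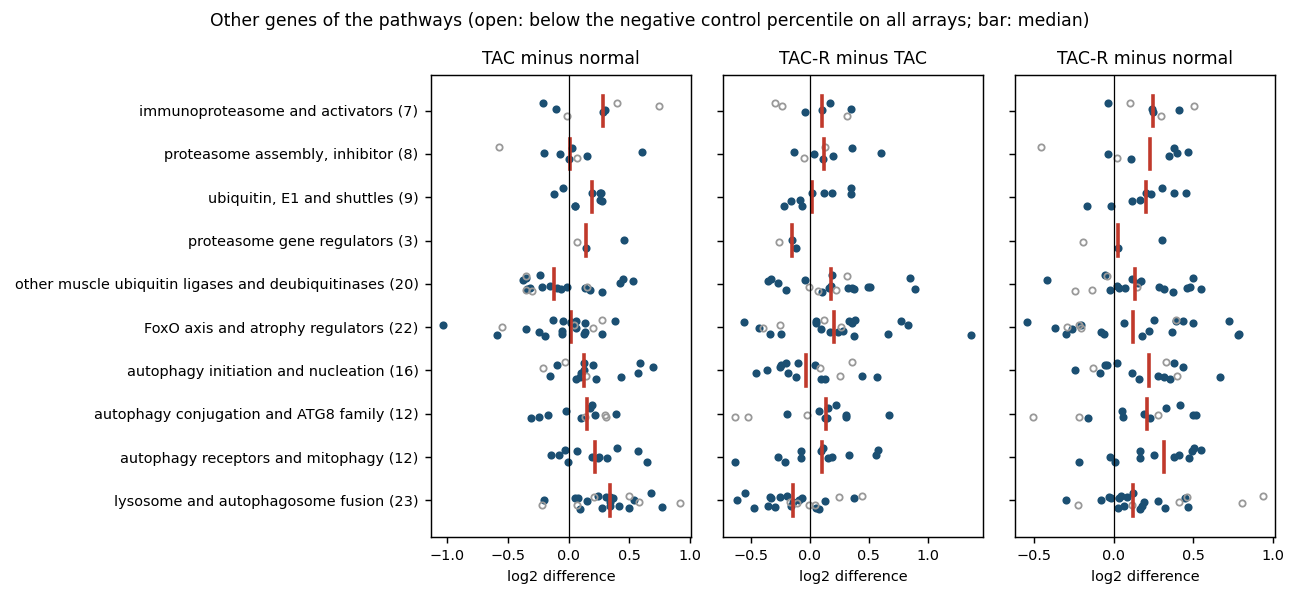
Log2 differences of the other genes of the pathways (points, open where every array lay below the negative control percentile) with the median of each list (bars) in the 3 comparisons. The lysosome list has its median at 0.34 for TAC against normal and at -0.15 for TAC-R against TAC.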

How the data were processed

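Total RNA of rat heart was measured on 6 single-channel arrays. Per the labels, the authors made the deposited log2 values with Expression Console, using RMA (robust multi-array averaging) on core exons. No software version was given. That averaging makes array distributions more alike, so the size of a shift of all genes in 1 direction cannot be measured. Some differences between arrays remained. Rows above the negative controls had a median deviation of -0.09 on normal replicate 2 and of 0.05 on TAC-R replicate 2. Control rows (1646 of 24834) were left out, and 15049 of the 23188 tested rows had 1 gene symbol in the platform annotation, 0 had several and 8139 had none. limma 3.58.1 in R 4.3.3 fitted 1 mean per group to all 6 arrays without covariates (3 residual degrees of freedom, prior 5.71), with Benjamini-Hochberg adjustment over all tested rows. An exact two-sided permutation test of 2 arrays against 2 cannot go below p = 0.333. The fit was tested on simulated data. No member reached the ceiling of the values. Same-numbered arrays were not treated as pairs.

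The genes and lists were chosen with earlier results of these data known. Named are all 10 members outside the Psm families, the 5 largest and 5 smallest differences of Psm genes in each comparison, the brightest and dimmest Psm genes, and of each pathway list the called genes and the 2 largest absolute differences per comparison. Promoters were matched by gene ID for 37 of 45 members.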

Additional observations from a re-analysis of the deposited data

How the results depend on the processing

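The count of members called was 0 in all 3 comparisons and in every alternative except for TAC-R against TAC, where it was 1, Sqstm1, with an intensity trend, with rows below the median of row means left out, and when genes were counted by unadjusted p under 0.05 plus 2-fold change. Counts over all rows moved more, given here for TAC against normal, TAC-R against TAC and TAC-R against normal (59, 100 and 21 as reported). They were 170, 344 and 156 with an intensity trend, 39, 44 and 10 when control rows stayed in the fit, 35, 37 and 12 when each fit held its 2 groups alone, and 353, 456 and 331 by unadjusted p plus 2-fold change. With dim rows left out the last 2 were 187 and 68, and the last was 37 without ceiling rows and 54 with array medians centred. Leaving out 1 array gave 0 to 35, 4 to 37 and 0 to 12. With the replicate block the counts were 36, 47 and 11 and no member was called, while Gadd45a had an adjusted p = 0.1 for TAC-R against TAC. Deviations of same-numbered arrays correlated at 0.0117, -0.00932 and -0.0127, so no deviation shared by number was seen. These correlations cannot show whether same-numbered arrays were handled together.

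Leaving out 1 array moved the median difference of the Psm genes between -0.040 and 0.203 for TAC against normal, between 0.0329 and 0.186 for TAC-R against TAC, and between 0.107 and 0.279 for TAC-R against normal. Quantile normalization gave -0.0145, 0.0839 and 0.0541. Psmb4 changed sign for TAC-R against normal without TAC-R replicate 2. Its range was -0.0612 to 0.720. Without the assembly chaperones and Psma8, an alternative chosen after seeing the data, the medians were 0.08, 0.10 and 0.18. Of 90 differences of the 30 named members, 42 exceeded 1 standard error, and 38 of those within it changed sign in some alternative. With 2 arrays a group, single members could not be resolved at differences near 0.5 log2 units.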
